A study of Mus musculus with 6 samples.

Results

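The epidermal growth factor (EGF) family ligands and their ErbB receptors were followed in primary mouse renal fibroblasts cultured with or without Th17 cells. The members were 7 ligand genes (Hbegf, Areg, Ereg, Tgfa, Btc, Epgn and Nrg1) and 3 receptor genes (Egfr, Erbb2 and Erbb3), chosen by gene symbol, and all 10 were found among the 34745 genes of the deposited table. EGF family ligands are made as membrane-anchored precursors, and metalloproteases of the ADAM family release the soluble growth factor. The released ligand binds an ErbB receptor tyrosine kinase on the same or a neighbouring cell, which starts the Ras, Raf and ERK kinase cascade, and induced inhibitors then restrain the signal. In kidney, EGFR signaling is known for its part in tubular repair and in fibrosis.

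All libraries came from wild-type (WT) primary renal fibroblasts grown out of digested mouse kidney, with no sort for fibroblasts described. The first group was 3 libraries of fibroblasts without added T cells, whose treatment is given as none, here called alone. The second group was 3 libraries of fibroblasts kept for 24 h beneath an insert with 0.4-μm pores that held induced Th17 cells, which are helper T cells that make interleukin-17, and only the fibroblasts below the insert were collected. The study had differentiated the Th17 cells from spleen CD4+ T cells with IL-1β, IL-6, IL-23 and an antibody to IFN-γ, on plates coated with antibodies to CD3 and CD28. The methods name Balb/c mice for the study as a whole. Age, sex and number of the mice used here were not given, nor whether libraries of a group came from separate cultures, and the errors and p-values below therefore cover library-to-library spread that may be technical.

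Total counts per library lay between 12050529 and 13209581. Cocultured replicate 3 stood somewhat apart, since the chi-square statistic per gene against the other cocultured libraries was 13.19 and 14.3, whereas other pairs within a group gave 6.07 to 8.07. Of 12 fibroblast markers 1 (Dcn) rose and 9 fell in edgeR, where 17.1% of all genes tested rose and 20.0% fell. Their summed FPKM (fragments per kilobase of gene length, scaled to library size) was 4069 to 4263 alone and 2394 to 2624 with Th17 cells. The collagen genes Col1a1, Col1a2 and Col3a1 had the highest lone means, at 2126, 752 and 398 FPKM, and fell to 918, 291 and 91.5 FPKM. Mean Dcn went from 237 to 700 FPKM, and Postn and S100a4 did not pass the test. Of 18 T cell markers 2 (Trac and Lck) had enough counts to test, and 6, including Il17a and Il17f, were at 0 counts in every library. Lck fell (log2 fold change −1.04, adjusted p = 0.00755 in edgeR) and Trac did not pass the test. The summed FPKM of these markers was 3.24 to 4.24 alone and 2.68 to 3.696 with Th17 cells. The summed levels of other cell types' markers were lower in coculture, although not every single marker was. For 12 macrophage markers the summed FPKM was 28.1 to 30.1 alone and 4.51 to 5.49 with Th17 cells, with Adgre1 and Ptprc at 0 counts in each cocultured library. The same sums were 8.74 to 9.87 and 3.41 to 4.14 for 15 renal epithelial markers, 4.54 to 5.21 and 1.58 to 2.01 for 12 keratinocyte markers, 0.712 to 0.870 and 0.221 to 0.382 for 8 endothelial markers, and 1.62 to 2.03 and 0.877 to 1.36 for 8 Schwann cell markers. Single genes made up most of the lone sum for macrophages (Lyz2, mean 21.4 FPKM), epithelium (Krt19, 6.43), keratinocytes (Ivl, 3.86) and endothelium (Kdr, 0.563). The epithelial marker Aqp1 and the Schwann cell marker S100b were higher in every cocultured library than in any lone one. Their means went from 1.10 to 1.65 and from 0.422 to 0.928 FPKM, but neither passed the test. Markers with overlapping groups and a higher cocultured mean included Krt10, Col17a1, Pecam1 and Tek. Of the 5 macrophage, 5 epithelial, 1 keratinocyte, 2 endothelial and 4 Schwann cell markers that could be tested, 5, 2, 1, 1 and 2 fell and none rose (edgeR). These are few genes, to be read against the 20.0% of all genes tested that fell. Of those that fell, Adgre1, Ptprc, Lrp2, Kdr, Mbp and Ngfr passed the low-count filter only through the lone libraries, where they were high. The count of falls is therefore partly set by that filter. Of the listed markers 0, 3, 3, 3 and 1 were at 0 counts in every library (among them Umod and Aqp2 for tubules, Krt5 and Krt15 for keratinocytes and Tie1 for endothelium). In bulk RNA, fewer cells of a type and less RNA per cell cannot be told apart, and the part of these cells in the results below was not tested.

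Coculture with Th17 cells was accompanied by higher levels of 3 ligand transcripts and a lower level of 1 receptor transcript. Epiregulin (Ereg), amphiregulin (Areg) and neuregulin 1 (Nrg1) rose, Egfr fell, and no difference was detected for Hbegf, Btc, Erbb2 and Erbb3. The remaining 2 members, Tgfa and Epgn, had too few counts to pass the filter, so 8 of 10 were tested. A gene was said to rise or fall when its adjusted p in edgeR's quasi-likelihood fit over all 13088 genes tested was below 0.05. By that rule 17.1% of all genes tested rose and 20.0% fell, so 3 of 8 and 1 of 8 have to be read against those shares. The study's own rule also asks for a change of more than 2-fold, which 3.87% of all genes passed upward and 7.78% downward. Areg alone of the members passed it, upward, and none passed it downward. Ereg, with a fold change of 1.94, lay just under the limit. When a library was left out, 5 of the 6 fits gave 2 members past the limit instead of 1, all except the fit without lone replicate 2. In the fits without lone replicate 1, cocultured replicate 1 or cocultured replicate 2, Ereg crossed the limit. In those without lone replicate 3 or cocultured replicate 3, Epgn entered the test and passed. With 12, 13 and 6 counts alone and 2, 1 and 4 with Th17 cells, Epgn cleared the low-count filter only through lone libraries, where it was high. Its call in these fits is therefore partly set by the filter and adds no support. The groups did not overlap for 5 of the 8 tested members, compared with 50.4% of all genes tested. The median log2 fold change of the 8 tested members was 0.14, and that of all genes was 0.00.

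**Figure D1:**
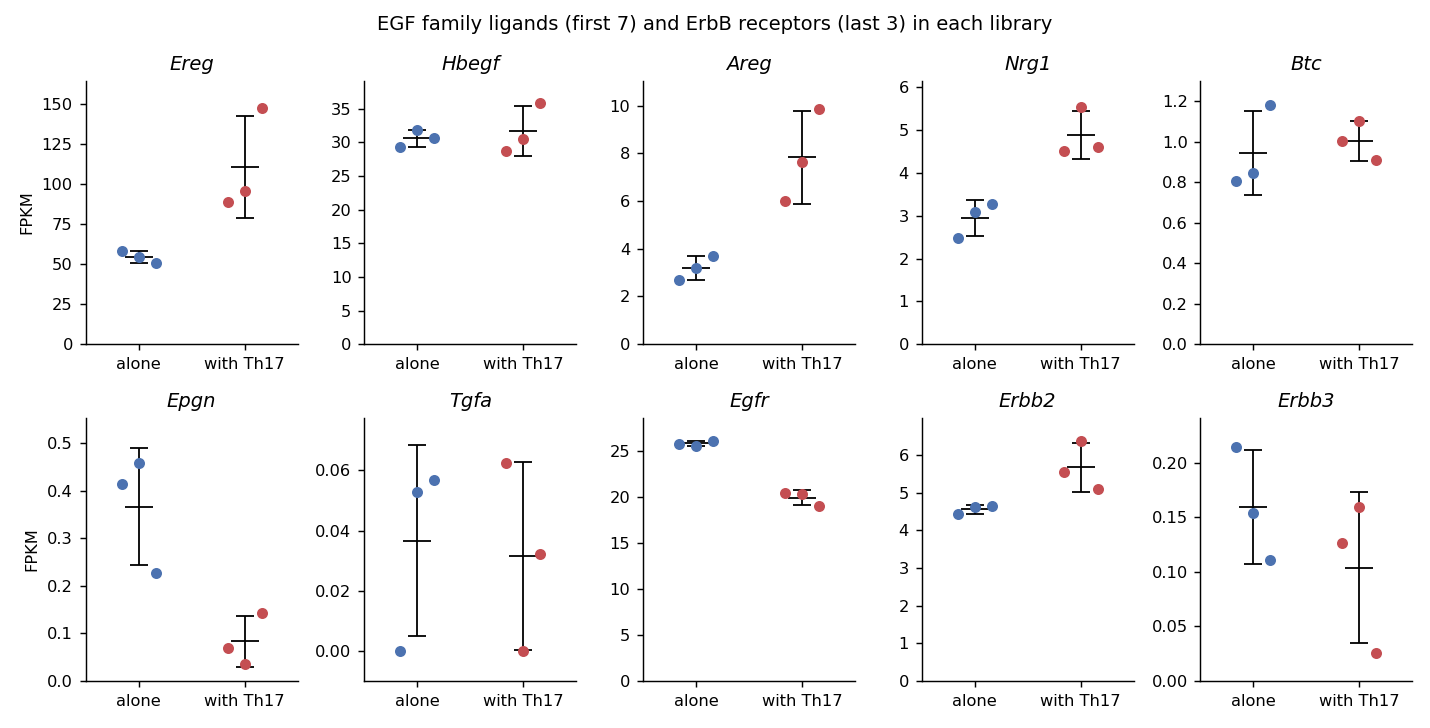
FPKM of each member in each library (y axis, linear, own scale per panel), with lone libraries in blue and cocultured libraries in red. Points are single libraries, and black bars give the mean and SD of 3 libraries. All 3 cocultured libraries lie above all lone libraries for Ereg, Areg, Nrg1 and Erbb2, and below them for Egfr and Epgn.

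Ereg was the most abundant member in both groups. Epiregulin is a ligand of EGFR and ErbB4 that many cells make only when stimulated. The gene (ENSMUSG00000029377, protein-coding) lies on the plus strand of chromosome 5, from 91074622 to 91093646 (GRCm38, as all positions here). Its level was 58.3, 54.3 and 50.9 FPKM in the lone libraries and 88.5, 95.6 and 147 FPKM in the cocultured libraries. Every cocultured library was above every lone library, and cocultured replicate 3 was the highest. The mean rose from 54.51 ± 3.704 to 110.4 ± 31.9 FPKM (SD, n = 3 each), with a log2 fold change of 0.95 (SE 0.167, 95% interval 0.57 to 1.33, adjusted p = 0.00192 in edgeR). Without cocultured replicate 3 the log2 fold change was 0.70 (adjusted p = 0.000187 in edgeR). The mean level of Ereg was above that of 94.5% of the tested genes in lone fibroblasts and of 97.5% in cocultured fibroblasts. A gene on the opposite strand, Gm42532, overlaps Ereg by 152 bases but had only 8 to 25 counts per library, against 2533 to 7758 for Ereg.

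Areg showed the largest fold change of the tested members. Amphiregulin is an EGFR ligand that binds heparin and is made by both epithelial and immune cells. The gene (ENSMUSG00000029378, protein-coding) is the next protein-coding gene after Ereg, on the same strand of chromosome 5, from 91139599 to 91148432. Counts were low, at 43, 50 and 54 alone and 96, 116 and 153 with Th17 cells, which corresponded to 2.68, 3.18 and 3.69 FPKM and to 6.01, 7.62 and 9.85 FPKM. The groups were separate, and cocultured replicate 3 was again the highest. The mean rose from 3.18 ± 0.505 to 7.83 ± 1.93 FPKM (SD, n = 3 each), a log2 fold change of 1.23 (SE 0.217, 95% interval 0.74 to 1.73, adjusted p = 0.00192 in edgeR). Without cocultured replicate 3 it was 1.04 (adjusted p = 0.00476 in edgeR). The mean of Areg moved from above 42.6% to above 64.1% of the tested genes.

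The promoters of Areg, the member with the largest rise, and of Egfr, the member that fell, are shown to set their start regions side by side. Both are RefSeq windows of 250 bases before and 50 bases from the annotated start (GRCm38.p6), read 5′ to 3′ on the gene's strand. Capitals mark matches, on either strand, to the letters searched: AP-1 (TGANTCA), the full cyclic AMP response element or CRE (TGACGTCA), TEAD (GGAATG), the GC box (GGGCGG) and the TATA box (TATAAA). The windows are Areg, chr5:91139349-91139648, plus strand, and Egfr, chr11:16751953-16752252, plus strand.
Areg: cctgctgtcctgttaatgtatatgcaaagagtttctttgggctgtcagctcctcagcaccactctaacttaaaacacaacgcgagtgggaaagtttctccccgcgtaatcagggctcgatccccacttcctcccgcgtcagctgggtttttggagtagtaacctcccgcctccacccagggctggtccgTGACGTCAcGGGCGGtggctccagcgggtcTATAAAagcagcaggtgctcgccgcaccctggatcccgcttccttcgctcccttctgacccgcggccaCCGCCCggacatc
Egfr: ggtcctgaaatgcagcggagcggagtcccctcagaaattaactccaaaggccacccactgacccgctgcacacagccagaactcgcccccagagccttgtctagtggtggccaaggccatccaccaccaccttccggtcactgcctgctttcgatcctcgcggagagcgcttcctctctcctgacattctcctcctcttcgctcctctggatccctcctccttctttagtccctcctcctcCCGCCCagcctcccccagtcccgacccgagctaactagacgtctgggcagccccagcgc

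The Areg window held 1 full CRE that began 61 bases before the start, a GC box that began 52 bases before it, a TATA box that began 31 bases before it and a second GC box on the reverse strand after it. The Egfr window held 1 GC box, on the reverse strand, that began 9 bases before the start, and none of the other letters. Among 32851 RefSeq windows of the same length, 1.79% held the full CRE, 13.6% the TATA letters, 35.7% a GC box, 7.81% the AP-1 letters and 14.7% the TEAD letters. Of the 6 members whose window was searched (Areg, Tgfa, Btc, Epgn, Egfr and Erbb2), only Areg held the full CRE. Ereg, Nrg1, Hbegf and Erbb3 were not searched, so nothing is known here of their start regions. The TEAD letters occurred once, in Erbb2, and the AP-1 letters in none of the 6. The GC content of these windows ran from 47.3% in Epgn to 70.7% in Tgfa, with 59.3% in Areg and 62.3% in Egfr, against a median of 52.7% over all windows. No matches overlapped each other. A match of letters is a description of the sequence only.

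Nrg1 was the third ligand that rose. Neuregulin 1 binds ErbB3 and ErbB4 rather than EGFR, and is known for its roles in Schwann cells and heart. Its level was 2.48, 3.08 and 3.28 FPKM alone and 4.52, 5.54 and 4.61 FPKM with Th17 cells, from 69 to 84 and from 124 to 146 counts. All cocultured libraries exceeded all lone libraries. The mean rose from 2.95 ± 0.413 to 4.89 ± 0.563 FPKM (SD, n = 3 each), with a log2 fold change of 0.67 (SE 0.161, 95% interval 0.30 to 1.03, adjusted p = 0.0102 in edgeR), and 0.71 without cocultured replicate 3. The deposited row for Nrg1 (ENSMUSG00000062991, chromosome 8, 31818028 to 31918203, minus strand) covers 9.37% of the span that the GENCODE vM21 annotation gives the gene, most of the rest being upstream, so isoforms that start there may not be covered by the value.

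**Figure D2:**
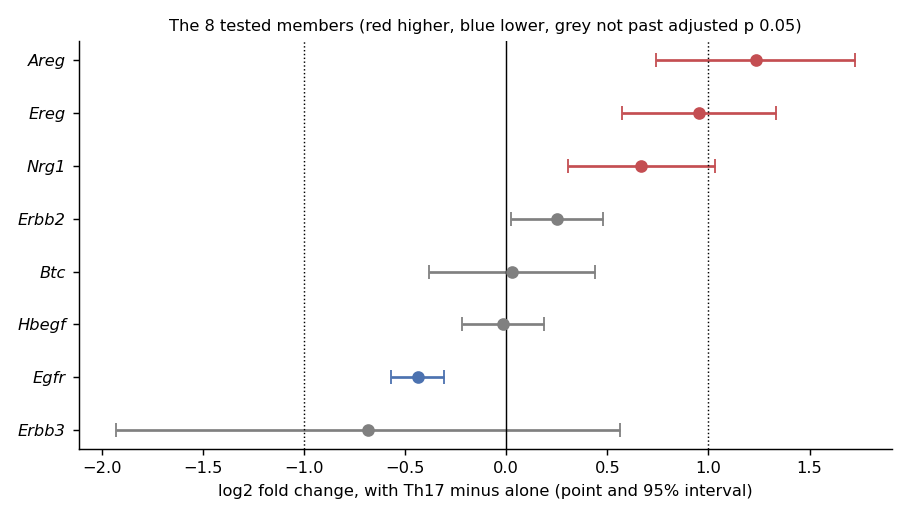
Log2 fold change (x axis, cocultured minus lone fibroblasts) of the 8 tested members, with points at the edgeR estimate and bars for the 95% interval of that gene alone. Dotted lines mark a 2-fold change. Areg, Ereg and Nrg1 lie to the right at 1.23, 0.95 and 0.67, and Egfr lies to the left at −0.44.

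For Hbegf, the second most abundant ligand, no difference was detected. Heparin-binding EGF-like growth factor binds EGFR and ErbB4. The gene (ENSMUSG00000024486, protein-coding) lies on chromosome 18 from 36504929 to 36515805, minus strand. Its level was 29.4, 31.9 and 30.7 FPKM alone and 28.8, 30.5 and 35.8 FPKM with Th17 cells. The groups overlapped, and both the lowest and the highest value were cocultured libraries. The log2 fold change was −0.02 (adjusted p = 0.913 in edgeR, SE 0.089), with a 95% interval of −0.22 to 0.19.

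Betacellulin (Btc), a ligand of EGFR and ErbB4, was present at a low level. The gene (ENSMUSG00000082361, chromosome 5, 91357261 to 91402994, minus strand) had 0.808, 0.844 and 1.18 FPKM alone and 1.002, 1.10 and 0.907 FPKM with Th17 cells. The groups overlapped, with a log2 fold change of 0.03 (SE 0.182, 95% interval −0.38 to 0.44, adjusted p = 0.920 in edgeR). Epigen (Epgn), an EGFR ligand best known from epithelia, had 12, 13 and 6 counts alone and 2, 1 and 4 counts with Th17 cells, so the groups were separate at the edge of detection. The gene (ENSMUSG00000035020, chromosome 5, 91027464 to 91035215, plus strand) did not pass the filter on low counts. Without the filter its log2 fold change was −2.15 (adjusted p = 0.0266 in edgeR), and DESeq2 gave −2.21 with an adjusted p of 0.0665. In the leave-one-out fits that tested it, edgeR gave an adjusted p of 0.0199 when lone replicate 3 was dropped and 0.0158 when cocultured replicate 3 was, whereas leaving out cocultured replicate 1 or 2 gave 0.0525 and 0.0558. Epgn entered these fits only through lone libraries, where it was high. Transforming growth factor alpha (Tgfa), another EGFR ligand (ENSMUSG00000029999, chromosome 6, 86195223 to 86275719, plus strand), had 0, 5 and 5 counts alone and 6, 0 and 3 counts with Th17 cells. At this depth 3 counts correspond to between 0.223 and 0.254 CPM, the count scaled to the effective library size, and no difference in Tgfa was detectable.

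Among the receptors, Egfr fell by a small and uniform margin. Egfr encodes the receptor for EGF, amphiregulin, epiregulin and the other EGFR ligands above. The gene (ENSMUSG00000020122, protein-coding) lies on chromosome 11 from 16752203 to 16918158, plus strand. Its level was 25.9, 25.6 and 26.2 FPKM alone and 20.5, 20.3 and 19.1 FPKM with Th17 cells. The lone libraries lay close together and all cocultured libraries were below them. The mean fell from 25.9 ± 0.291 to 19.97 ± 0.790 FPKM (SD, n = 3 each), a log2 fold change of −0.44 (SE 0.057, 95% interval −0.57 to −0.31, adjusted p = 0.00034 in edgeR). Without cocultured replicate 3 it was −0.40. The antisense gene Egfros overlaps Egfr but had at most 5 counts in a library.

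Erbb2 encodes the receptor with no known ligand of its own that pairs with the other ErbB proteins. The gene (ENSMUSG00000062312, chromosome 11, 98412470 to 98437716, plus strand) had 4.43, 4.61 and 4.65 FPKM alone and 5.54, 6.38 and 5.10 FPKM with Th17 cells. The groups were separate, but the difference did not pass the test, with a log2 fold change of 0.25 (adjusted p = 0.0795 in edgeR, SE 0.101) and a 95% interval, not adjusted for the number of genes, of 0.02 to 0.48. The call was gained without cocultured replicate 3 (0.33, adjusted p = 0.0234 in edgeR), with library size as the only scaling (0.31, adjusted p = 0.0313 in edgeR) and with limma on log2(FPKM + 1) (0.26, adjusted p = 0.0387). Mien1, on the opposite strand, overlaps Erbb2 by 9 bases and had 153 to 244 counts.

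Erbb3 encodes a neuregulin receptor whose own kinase is weak. The gene (ENSMUSG00000018166, chromosome 10, 128567523 to 128589652, minus strand) was close to the limit of detection, with 17, 12 and 8 counts alone and 10, 12 and 2 counts with Th17 cells. The groups overlapped, and the log2 fold change of −0.68 (adjusted p = 0.363 in edgeR, SE 0.551) had a 95% interval of −1.93 to 0.56, too wide to exclude a change past 2-fold downward. Erbb4, the other neuregulin receptor, had 1 count in 1 cocultured library and 0 in the other 5.

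The ligand and receptor transcripts were then set against each other on the FPKM scale, which is per length and can be summed over genes. The summed level of the 7 ligands was 94.1, 93.8 and 90.0 FPKM alone and 129, 140.4 and 198 FPKM with Th17 cells. The mean was 92.6 ± 2.27 FPKM alone and 156 ± 37.3 FPKM with Th17 cells (SD, n = 3 each), a difference of 63.3 FPKM and a ratio of means of 1.68 (exact two-sided permutation p = 0.1, the smallest that 3 against 3 allows). Without cocultured replicate 3, which had the highest sum, the difference was 42.0 FPKM. The summed level of the 3 receptors was 30.5, 30.4 and 30.9 FPKM alone and 26.2, 26.9 and 24.2 FPKM with Th17 cells, a difference of −4.87 FPKM (exact permutation p = 0.1). Neither sum overlapped between the groups.

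The composition of the ligand pool follows from the levels already given and is no separate result. Ereg made up 62.0%, 57.9% and 56.6% of ligand FPKM alone and 68.6%, 68.1% and 74.1% with Th17 cells. Hbegf accounted for 31.2%, 34.0% and 34.1% alone and 22.3%, 21.7% and 18.1% with Th17 cells. Its share was therefore smaller in every cocultured library although no difference in its own level was detected. The ratio of Ereg to Hbegf was 1.98, 1.70 and 1.66 alone and 3.07, 3.14 and 4.10 with Th17 cells (exact permutation p = 0.1). The share of Areg was 3.44% ± 0.627 alone and 5.02% ± 0.386 with Th17 cells, and that of Nrg1 was 3.19% ± 0.507 and 3.26% ± 0.837 (SD, n = 3 each), with overlapping groups for Nrg1 (exact permutation p = 1). On the receptor side, Egfr made up 84.6% ± 0.235 of receptor FPKM alone and 77.6% ± 1.70 with Th17 cells (SD, n = 3 each). The ratio of summed ligand to Egfr FPKM was 3.64, 3.66 and 3.44 alone and 6.29, 6.90 and 10.4 with Th17 cells (exact permutation p = 0.1). That sum includes Nrg1, which does not bind EGFR, at the shares given above. All of these are transcript ratios and say nothing of protein.

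**Figure D3:**
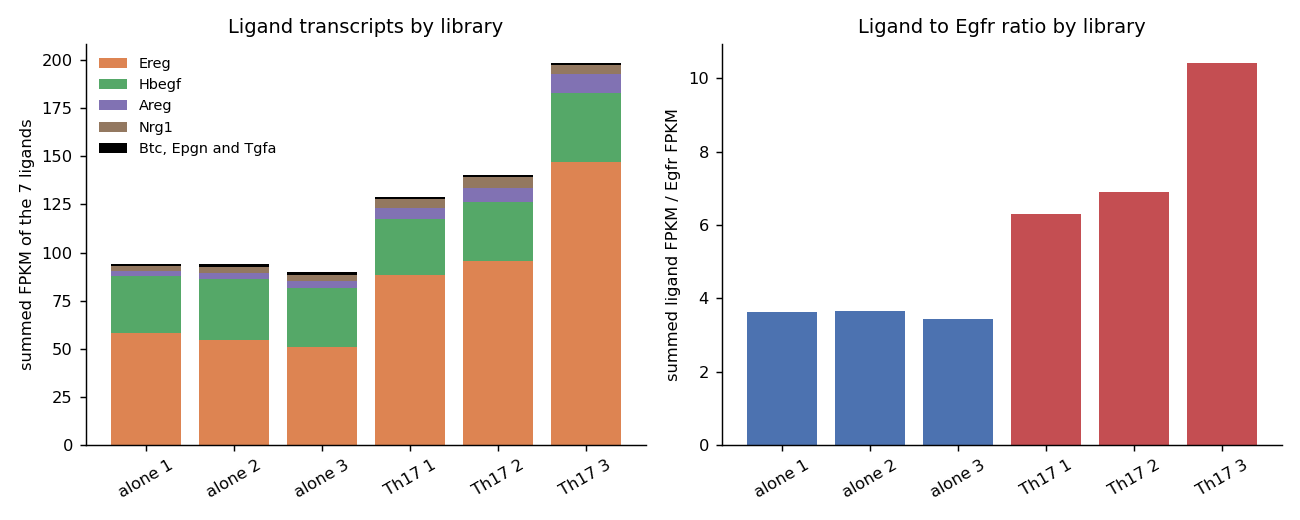
Left, summed FPKM of the 7 ligands in each library (y axis), stacked by ligand, with Btc, Epgn and Tgfa together in black. Right, the ratio of that sum, Nrg1 included, to Egfr FPKM (y axis, no unit). Ereg is the thickest layer in all 6 libraries, and the ratio is 3.44 to 3.66 in the lone libraries and 6.29 to 10.4 in the cocultured libraries.

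Ranked by mean FPKM, lone fibroblasts followed the order Ereg, Hbegf, Egfr, Erbb2, Areg, Nrg1, Btc, Epgn, Erbb3 and Tgfa. Neighbours in this order had separate ranges except Areg and Nrg1. In cocultured fibroblasts Areg stood above Erbb2 in the mean, at 7.83 against 5.67 FPKM, but their ranges overlapped, as did those of Erbb2 and Nrg1. The last 3 places, held by Erbb3, Epgn and Tgfa, could not be separated in coculture. The levels spanned a wide range, from 54.5 FPKM for Ereg to 0.0366 FPKM for Tgfa in lone fibroblasts.

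Epgn, Ereg, Areg and Btc lie together within 375.5 kb of chromosome 5, next to a cluster of CXC chemokine genes, a feature that did not enter the choice of members. The neighbourhood from Cxcl5 to Parm1, delimited after the values had been seen, held 18 genes, of which 11 were tested. Of these 8 rose, 3 did not pass the test and none fell. Of all genes tested 17.1% rose, but with bounds set from these values the count is a description and was not tested against that share. The genes that rose were Cxcl5, Ppbp, Cxcl3, Cxcl1, Cxcl2, Mthfd2l, Ereg and Areg. The 5 neutrophil chemokine genes that rose had log2 fold changes of 3.92 for Ppbp, 3.24 for Cxcl3, 1.86 for Cxcl2, 1.49 for Cxcl5 and 1.16 for Cxcl1 (adjusted p = 1.21e-05, 2.14e-07, 0.000102, 6.12e-06 and 0.000305 in edgeR). Ppbp had 3, 7 and 3 counts alone and 71, 66 and 75 with Th17 cells, so it entered the test only through the cocultured libraries. Mthfd2l, between the chemokines and Epgn, rose by 0.37 (adjusted p = 0.0185 in edgeR). Past Areg, Btc at 0.03 and Parm1 at −0.27 did not pass the test (adjusted p = 0.920 and 0.0651 in edgeR). Epgn, between Mthfd2l and Ereg, was lower in each cocultured library but not tested. Pf4, a CXC chemokine gene of the same cluster that was also too low to test, had 7, 10 and 8 counts alone and 0 in every cocultured library, and without the filter on low counts its adjusted p in edgeR was 0.00311. Of the 8 genes that rose, all except Mthfd2l had their highest count in cocultured replicate 3.

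**Figure D4:**
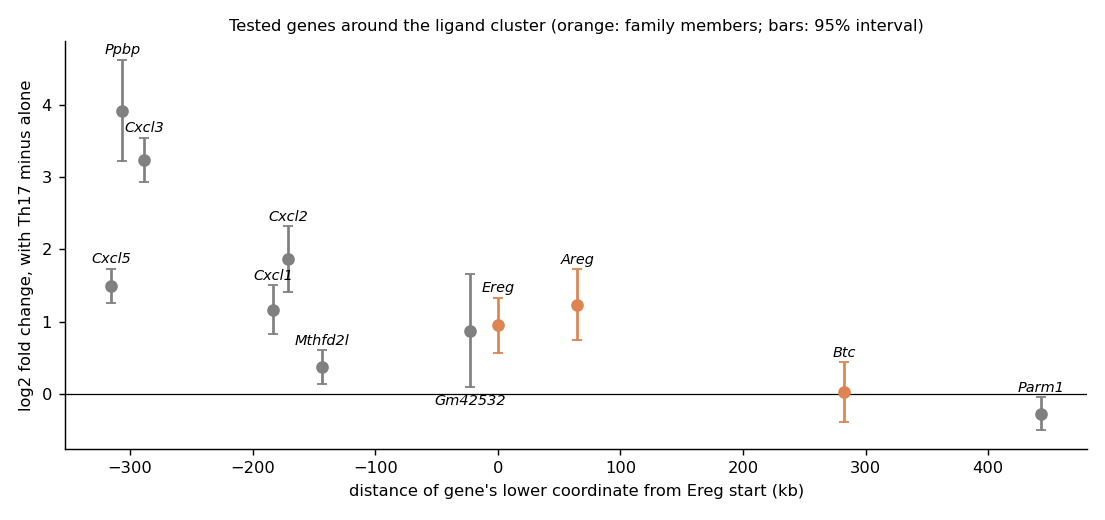
Log2 fold change (y axis, cocultured minus lone fibroblasts) of the 11 tested genes around the ligand cluster, against the distance of each gene's lower coordinate from the start of Ereg (x axis, kb). Orange points are family members, grey points other genes, and bars 95% intervals. The chemokine genes on the left lie between 1.16 and 3.92, Ereg and Areg at 0.95 and 1.23, and Btc on the right at 0.03.

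The other genes of the pathway were taken from lists by role. The remaining family genes (Egf, Nrg2, Nrg3, Nrg4 and Erbb4) were all too low to test. Egf, the founding ligand, had 7, 8 and 3 counts alone and 14, 8 and 6 counts with Th17 cells. Over the other lists 77 genes were tested, of which 20 rose, 12 fell and 45 did not pass the test. Of these genes 4 rose and 5 fell by more than 2-fold. Over all genes tested, 17.1% rose and 20.0% fell, and 3.87% and 7.78% did so by more than 2-fold, and the counts of each list below are to be read against those shares.

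Of 11 genes for the shedding of ligands, 3 rose and 4 fell (median log2 fold change −0.09, against 0.00 for all genes). Adam17, the protease that releases amphiregulin, epiregulin and HB-EGF among others, had 9.92, 10.2 and 10.1 FPKM alone and 7.98, 7.56 and 7.12 FPKM with Th17 cells. All cocultured libraries were below the lone ones, and Adam17 fell by 0.48 on the log2 scale (adjusted p = 0.00051 in edgeR, SE 0.067). Rhbdf2, which encodes the iRhom2 protein that carries ADAM17 to the cell surface, moved the other way, from 4.52, 5.49 and 5.47 FPKM to 12.2, 12.9 and 10.7 FPKM. Its log2 fold change was 1.15 (adjusted p = 3.45e-05 in edgeR, SE 0.105), the highest of the list. Frmd8, whose product stabilizes iRhom proteins, rose by 0.46 (adjusted p = 0.00047 in edgeR, SE 0.064), a gene named after its value was seen. Timp3, an inhibitor of ADAM17 and other metalloproteases, had 63.8, 65.7 and 65.0 FPKM alone and 10.8, 11.1 and 9.66 FPKM with Th17 cells. It was the lowest of the list, with a log2 fold change of −2.69 (adjusted p = 2.76e-08 in edgeR, SE 0.071). Besides Timp3, the metalloprotease genes Adam12 (−1.61) and Adam8 (−1.68) were the only list members past 2-fold downward (adjusted p = 2.67e-07 and 0.000818 in edgeR), named here for that count.

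Of 18 feedback inhibitors, 7 rose and 2 fell (median 0.07). Errfi1, whose product MIG6 binds and inhibits the EGFR kinase, had 81.1, 88.0 and 83.7 FPKM alone and 145, 142 and 132 FPKM with Th17 cells. The groups were well apart, and Errfi1 rose by 0.66 (adjusted p = 3.78e-05 in edgeR, SE 0.062). Dusp4, an ERK phosphatase, had the highest value of the list at 0.92 (adjusted p = 4.38e-06 in edgeR, SE 0.062). Of the 3 Sprouty genes on the list, Spry2 at −0.03 did not pass the test (adjusted p = 0.785 in edgeR). Spry4 rose by 0.78 (adjusted p = 0.000279 in edgeR, SE 0.099), whereas Spry1 fell by 1.54 (adjusted p = 6.29e-05 in edgeR, SE 0.155). Dusp6, another ERK phosphatase and a common readout of ERK activity, was at −0.01 (SE 0.091, 95% interval −0.22 to 0.19, adjusted p = 0.934 in edgeR) with overlapping groups.

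Of 26 adaptor and kinase genes between receptor and nucleus, 18 did not pass the test, 5 rose and 3 fell (median 0.03). The highest of those past the test was Pik3r1, a regulatory subunit of phosphoinositide 3-kinase, at 0.47 (adjusted p = 0.000835 in edgeR, SE 0.071). The lowest was Eps8, an EGFR substrate that acts on actin, at −1.74 (adjusted p = 7.97e-06 in edgeR, SE 0.128), the only gene of this list past 2-fold. Of 22 genes that growth factors induce in many cell types, 5 rose and 3 fell (median −0.03). Egr1, an immediate early transcription factor, had 2732, 2598 and 2537 counts alone and 1489, 2276 and 1723 counts with Th17 cells, and fell by 0.59 (adjusted p = 0.0122 in edgeR, SE 0.147). Fosl1, an AP-1 subunit that ERK stabilizes, was at 0.13 (SE 0.091, 95% interval −0.08 to 0.33, adjusted p = 0.298 in edgeR), and its groups overlapped. Klf10 had the lowest value of those past the test, at −0.85 (adjusted p = 0.00196 in edgeR, SE 0.149). Etv1, an ETS transcription factor, had the highest, at 3.10 (adjusted p = 6.7e-05 in edgeR, SE 0.317), from 9, 5 and 11 counts alone to 61, 76 and 92 counts with Th17 cells. With so few lone counts, Etv1 passed the low-count filter only through the cocultured libraries, where it was high. Ccnd1 (cyclin D1) at 1.98 and Phlda1 at 1.37 were the other genes of the list past 2-fold upward (adjusted p = 4.56e-08 and 1.03e-06 in edgeR). The relatives Etv4 and Etv5, at −0.11 and −0.02, did not pass the test (adjusted p = 0.319 and 0.856 in edgeR). The remaining genes of the list past the test were Maff at 0.47, Ier3 at 0.26 and Fosb at −0.52 (adjusted p = 0.00157, 0.0188 and 0.0295 in edgeR).

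**Figure D5:**
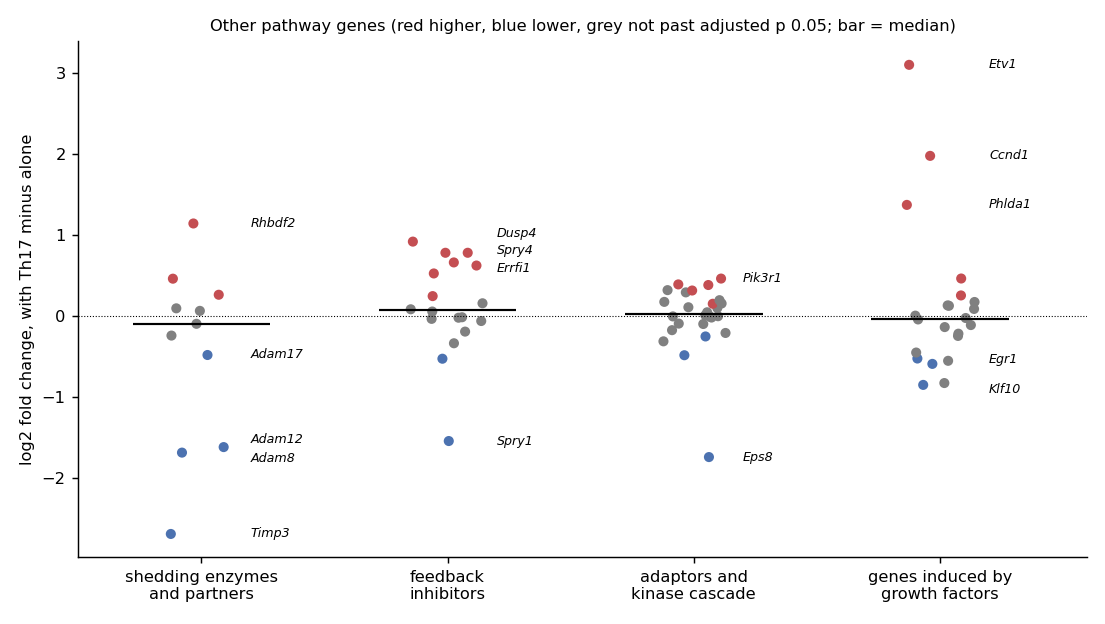
Log2 fold change (y axis, cocultured minus lone fibroblasts) of the 77 tested pathway genes outside the family, grouped by role (x axis, points spread sideways for legibility). Red points rose, blue points fell, grey points did not pass an adjusted p of 0.05, and bars mark medians. The list medians lie between −0.09 and 0.07, with Timp3 at −2.69 and Etv1 at 3.10 as the extremes.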

How the data were processed

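RNA of the 6 libraries was sequenced on an Illumina NovaSeq instrument. Per the labels and the study's methods, the authors used Seqtk for read filtering, HISAT2 2.0.4 for alignment (mm10 is the build named) and deposited raw fragment counts per gene from StringTie 1.3.3b. Strand use and the handling of shared fragments were not given. The authors also deposited FPKM values, which use the plain library total and carry no TMM factor. Groups came from sample titles and columns from sample descriptions. Library totals bound the precision, and the filter on low counts left Tgfa and Epgn untested.

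Counts were fitted across all genes in edgeR 4.0.16 (R 4.3.3, filterByExpr with a minimum count of 10, TMM, glmQLFit and glmQLFTest, Benjamini-Hochberg adjustment), with no covariate. SE is the unshrunk coefficient divided by the square root of F. Alternatives used DESeq2 1.42.0, limma 3.58.1 on log2(FPKM + 1), other scalings and filters, a replicate block and each library left out. The code of the fits was run on counts simulated with a single dispersion for all genes and independent libraries. Such counts do not probe spread that differs between genes or a replicate that stands apart, and no result rests on them. Python 3.11.15 and matplotlib 3.10.9 drew the figures. Of the gene identifiers, 34267 occur in GENCODE vM21 (GRCm38), 99.9% at overlapping positions. Promoters came from RefSeq (GRCm38.p6), and windows of 6 of the 10 members were searched. The member search left out chromosome 18, and with it Hbegf, whereas the set of all windows was not limited in this way. No window was matched for Ereg, Nrg1 and Erbb3. One listed symbol had more than 1 row, and its row with the higher total count was taken.

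The members and the lists were chosen with earlier results of these data known. Genes named are all 10 members, the highest and lowest called gene of each pathway list, and Egf, Erbb4, Adam17, Rhbdf2, Errfi1, Dusp6, Spry4, Egr1 and Fosl1. Other names were added after their values were seen.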

Additional observations from a re-analysis of the deposited data

How the results depend on the processing

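Areg, Ereg, Nrg1 and Egfr kept their direction and stayed past an adjusted p of 0.05 under all 13 alternatives, with log2 fold changes of 1.04 to 1.40, 0.70 to 1.09, 0.56 to 0.74 and −0.46 to −0.36. Erbb2 gained the call under 3 of 13, as given above, and Erbb3 under none of the 12 that tested it. Hbegf and Btc never passed the test, and their near-zero values changed sign. Hbegf was 0.049 under scaling by library size only, 0.042 under limma on log2(FPKM + 1), and between −0.11 and 0.051 when a library was left out. Btc was between −0.073 and 0.21 when a library was left out. The number of members past 2-fold was 2 with library size only (Areg and Ereg) and 2 without the low-count filter (Areg and Epgn), and 1 to 2 when a library was left out. The number of members that fell was 2 without the low-count filter, where Epgn could be tested, and 1 to 2 when a library was left out. The added member in the latter fits was Epgn, which entered them only through its lone libraries. The number that rose and the counts over the pathway lists moved by at most 1.5 times under each alternative run. The differences in summed FPKM moved by less than the SD of the cocultured group (37.3 FPKM for ligands, 1.39 for receptors), the wider group. The ligand difference went from 63.3 to 42.0 FPKM without cocultured replicate 3, a library that itself widens that SD. Dividing FPKM by the TMM factor took the receptor difference from −4.87 to −6.10 FPKM, where the lone SD was 0.300.

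Whether the numbers in the titles pair the libraries is not stated. Deviations of same-numbered libraries correlated at 0.016, −0.026 and −0.0036, and those of differently numbered libraries at −0.040 to 0.046. No pairing was detected, but so few libraries cannot exclude a small shared effect. With a replicate block Ereg was at 0.92, Areg at 1.22, Nrg1 at 0.67 and Egfr at −0.44, and no member's call changed. Depth limits Tgfa, Epgn and Erbb3.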
